A study of Mus musculus with 16 samples.

Results

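A set of 8 genes of androgen synthesis and of the Leydig and theca cell hormone INSL3 was followed across the ovaries and testes of germ-free and conventionally raised mice. They were chosen by symbol, 8 of the 38087 genes in the count table: Cyp17a1, Cyb5a, Por, Hsd17b3, Srd5a1, Srd5a2, Srd5a3 and Insl3. Of these, 7 stood in the table under that symbol, and Cyb5a stood there under its older symbol Cyb5 and was matched by its gene identifier.

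Androgens are made from cholesterol, which CYP11A1 turns into pregnenolone in the mitochondria of steroid-making cells. The cytochrome P450 enzyme CYP17A1 then makes androgen precursors in the Leydig cells between the tubules of the testis and in the theca cells around ovarian follicles. It takes its electrons from P450 oxidoreductase (POR), and cytochrome b5 (CYB5A) favours its androgen-forming step. HSD17B3 makes testosterone from androstenedione, and steroid reductases of the SRD5A family turn testosterone into the stronger dihydrotestosterone. INSL3, a peptide of the insulin and relaxin family, is secreted by Leydig and theca cells, acts on the receptor RXFP2 and in the fetus guides the descent of the testis.

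Total RNA was sequenced from whole gonads of C57BL/6j mice aged 15 to 16 weeks, fed ad libitum and sampled at zeitgeber times 2 to 4, counted in hours after lights on. The groups were 3 germ-free (GF) and 4 conventionally raised (CV) testes of males, and 5 GF and 4 CV ovaries of females. GF mice are raised without microbes, and CV mice carry a normal microbiota. The labels name no transgene, treatment, batch, litter or oestrous stage, and tissue and sex are 1 factor. Whether each library came from its own animal is not stated, so the p-values reflect only how these samples differ, which may be technical. In whole gonads, fewer cells of a type and less RNA per cell cannot be told apart.

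Library totals ran from 25880591 to 28266867 counts in the testis and from 12912251 to 15907297 in the ovary, and libraries of a group varied by 4.17% in the testis and 18.5% in the ovary beyond counting error (edgeR biological coefficient of variation). All 6 genes of a Leydig cell marker list were detected, with a summed level of 265 to 287 CPM, read counts scaled to library size, in GF and 228 to 320 CPM in CV testes. All 6 genes of a theca marker list were detected, with sums of 361 to 701 CPM in GF and 503 to 671 CPM in CV ovaries. The 6 sperm and germ cell genes of the testis summed to at least 11402 CPM in every testis and to at most 3.96 CPM in every ovary. Some libraries stood apart in ways that touch the genes below. GF ovary 5 had 35.4 CPM over 5 adrenal cortex genes, where no other library exceeded 2.78 CPM. GF testis 1 had 41.6 CPM over 5 epididymis genes, against at most 0.387 CPM in any other library. Crisp1 and Adam7 made up most of that sum, at 31.9 and 8.28 CPM, while Lcn5 and Lcn8 had 2 counts each. Every ovary library held Ovgp1, from a list of 5 oviduct genes, at 1732 to 3705 CPM in GF and 2529 to 3322 CPM in CV ovaries. Ovgp1 was highest in GF ovary 1, where Epcam of that list was lowest of the ovaries, at 51.7 CPM. Epcam, Pax8, Krt8 and Krt18 of that list were highest in CV ovary 2, at 120, 55.6, 185 and 145 CPM. There Ovgp1 was the lowest of the CV ovaries, and what part of it comes from oviduct was not tested. Adipocyte genes summed to 32.2 to 882 CPM in GF and to 59.5 to 928 CPM in CV ovaries, and none of this could be used to correct a library.

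**Figure D1:**
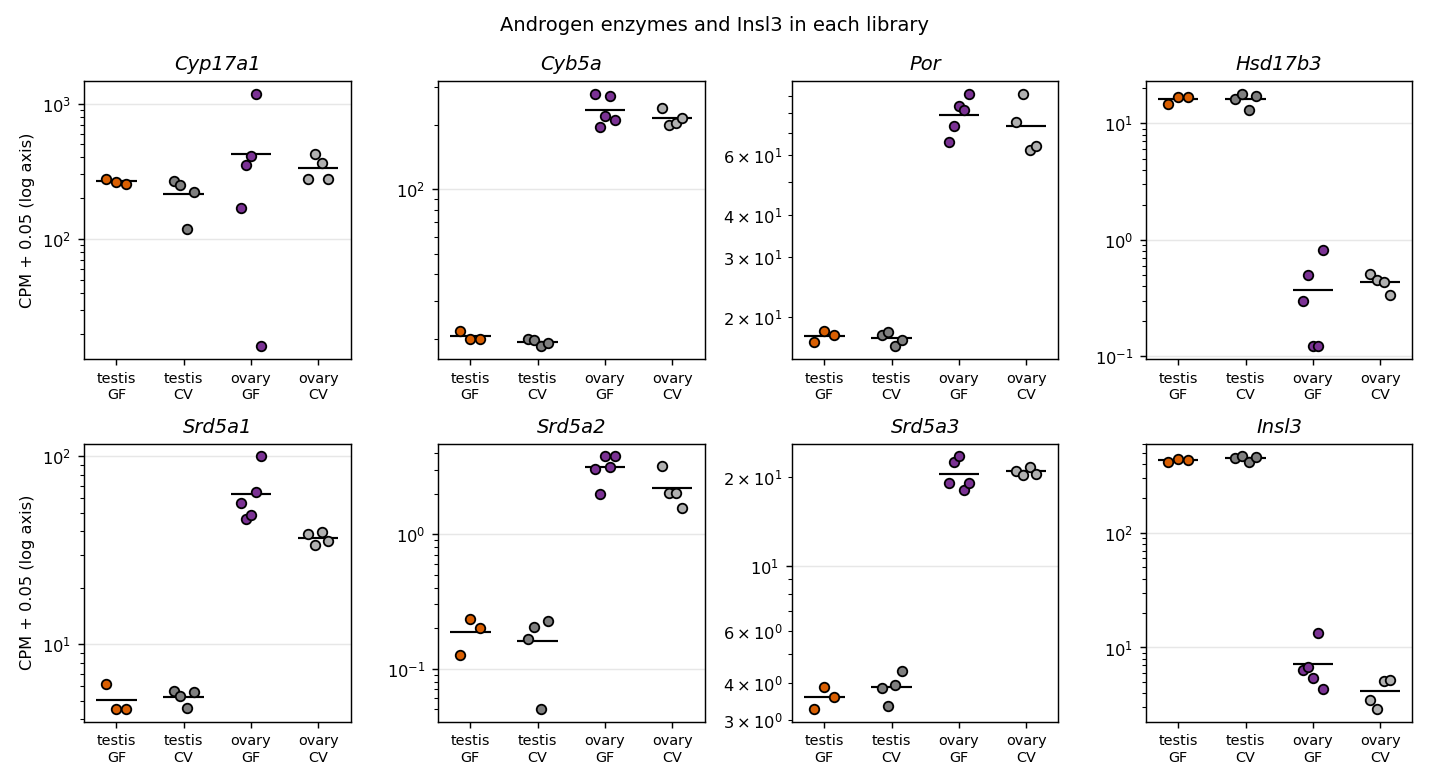
Level of each gene in each library, as CPM + 0.05 on a log axis with TMM scaling within each tissue; points are libraries and bars are group means. Insl3 and Hsd17b3 sit higher in testes, the other genes except Cyp17a1 sit higher in ovaries, and Cyp17a1 spans 16.1 to 1182 CPM in GF ovaries.

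Per kilobase of exon, the order of the 8 genes was not the same in the testis and the ovary. In GF testes Insl3 led with 690 ± 17.9 CPM per kb, and in CV testes with 722 ± 35.7 CPM per kb (SD, n = 3 and 4). Cyp17a1 came next, with 96.1 ± 4.51 CPM per kb in GF and 77.6 ± 24.0 in CV testes. Hsd17b3 followed with 11.6 ± 0.862 CPM per kb in GF and 11.5 ± 1.58 in CV testes. Below it came Cyb5a (6.60 in GF and 6.21 in CV testes), Por (4.36 and 4.29), Srd5a1 (1.73 and 1.80), Srd5a3 (0.757 and 0.824) and Srd5a2 (0.0851 and 0.0694 CPM per kb). No neighbours in this order overlapped in the range of their libraries in either testis group.

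In the ovary Cyp17a1 led, with 154 ± 163 CPM per kb in GF and 122 ± 26.2 in CV libraries (SD, n = 5 and 4). Cyb5a had 75.6 ± 12.2 CPM per kb in GF and 68.8 ± 5.72 in CV ovaries. Below these the CV order was Por (18.2), Srd5a1 (12.7), Insl3 (6.62), Srd5a3 (4.48), Srd5a2 (1.34) and Hsd17b3 (0.277 CPM per kb). In CV ovaries Insl3 and Srd5a3 overlapped in range, and the other neighbours did not. In GF ovaries Srd5a1 averaged 21.8 ± 7.48 and Por 19.6 ± 2.45 CPM per kb and overlapped, as did Cyp17a1 with Cyb5a and Por with Insl3. Lengths are those of all exons joined, so a gene that uses only some of them is understated.

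The contrast of CV testes over CV ovaries separated Insl3 and Hsd17b3 from the other members. Of the 8 genes, 7 were called at an adjusted p under 0.05 in edgeR's quasi-likelihood test with Benjamini-Hochberg adjustment over all genes, where 90.3% of all 21977 genes tested were called, so the count itself says nothing particular of these genes. Insl3 and Hsd17b3 were higher in the testis, and Cyb5a, Por, Srd5a1, Srd5a2 and Srd5a3 were lower. The CV ranges did not overlap for these 7 genes, as for 88.1% of all genes. Levels in the next paragraphs are CPM with TMM scaling over all 16 libraries, and fold changes are testis over ovary.

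Insl3 (ENSMUSG00000079019, GRCm38 chromosome 8, 71689214 to 71690575, plus strand) had 625, 640, 572 and 636 CPM in CV testes, against 2.70, 2.22, 3.96 and 4.05 CPM in CV ovaries. It was 192-fold higher in the testis (log2 fold change 7.59, SE 0.293, edgeR adjusted p = 1.97e-12). Every testis library was far above every ovary library, and no ovary library was at 0. Hsd17b3 (ENSMUSG00000033122, chromosome 13, 64058266 to 64089230, minus strand) had 22.2, 24.6, 17.8 and 23.7 CPM in CV testes. It had 0.363, 0.318, 0.300 and 0.225 CPM in CV ovaries, which rest on 4 to 7 counts a library. The gene was 71.4-fold higher in the testis (log2 fold change 6.16, SE 0.292, edgeR adjusted p = 5.73e-13).

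The sequences around the start sites of Insl3 and Hsd17b3 are shown because these were the members higher in the testis. They are RefSeq windows on GRCm38.p6, from 250 bases before to 50 bases after the start, 5′ to 3′ on the gene's strand. RefSeq windows matched 6 of the 8 genes, and Cyp17a1 and Cyb5a had none. The letters searched, on both strands, were CAAGGTC and CAAGGCC, which NR5A1 (steroidogenic factor 1) is known to bind, AGATAA for GATA factors and TATAAA for the TATA box. They were chosen after the Insl3 window had been read. Capitals mark the matches. The Insl3 window is chr8:71689002-71689301, plus strand, and the Hsd17b3 window is chr13:64089152-64089451, minus strand.
Insl3: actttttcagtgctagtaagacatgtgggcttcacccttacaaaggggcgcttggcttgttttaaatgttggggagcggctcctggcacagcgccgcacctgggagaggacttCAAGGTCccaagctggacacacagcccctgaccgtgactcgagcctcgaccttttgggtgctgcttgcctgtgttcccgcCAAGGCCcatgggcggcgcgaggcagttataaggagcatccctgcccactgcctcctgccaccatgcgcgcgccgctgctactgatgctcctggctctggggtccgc
Hsd17b3: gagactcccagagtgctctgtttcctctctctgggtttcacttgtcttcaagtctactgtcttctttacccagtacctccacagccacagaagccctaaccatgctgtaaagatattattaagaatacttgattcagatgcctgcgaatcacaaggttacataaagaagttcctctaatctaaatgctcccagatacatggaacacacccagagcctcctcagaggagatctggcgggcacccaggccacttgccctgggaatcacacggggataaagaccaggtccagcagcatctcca
Insl3 held CAAGGTC at position -137 and CAAGGCC at position -57 from its start, both on its own strand. CAAGGTC stood in 3.96% of all 32851 windows and CAAGGCC in 6.19%. AGATAA stood in 11.18% and TATAAA in 13.62% of windows, and neither was in the windows of these 6 genes. The Hsd17b3 window and those of Por, Srd5a1, Srd5a2 and Srd5a3 held none of the 4 motifs, which says only that these letters are not in those windows. The Por window, chromosome 5, 135688895 to 135689194, lies inside the gene, whose annotated start is 135670033. For Srd5a1 the bases searched for past the window's start were not found in its annotated transcripts.

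Counts of Insl3 carry a limit that is visible in its neighbour. Insl3 has 2 exons, and its second exon (chromosome 8, 71690172 to 71690575, 404 of its 623 exon bases) is also annotated as the last exon of Jak3, a kinase of cytokine receptors on the same strand. In GF testes Jak3 had 11047, 12245 and 11823 counts beside 10792, 12037 and 11568 counts of Insl3. In CV testes Jak3 had 11975, 12431, 11449 and 13243 counts beside 11792, 12210, 11252 and 13028 counts of Insl3. The Jak3 total thus exceeded that of Insl3 by only 208 to 255 counts in GF and 183 to 221 counts in CV testes. In the ovary Insl3 came to 31.5% to 70.0% of the Jak3 counts in GF and to 18.2% to 46.8% in CV libraries. How the authors assigned reads of the shared exon is not given in the sources used here, and what part of the ovary counts of Insl3 comes from Jak3 was not tested.

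**Figure D2:**
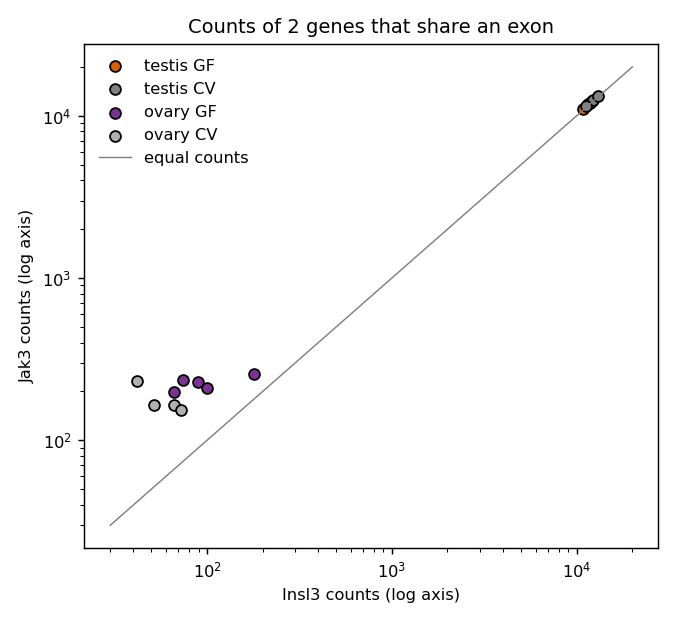
Jak3 counts against Insl3 counts in each of the 16 libraries, both on log axes, with a line of equal counts. The 7 testis libraries lie just above the line, at 10792 to 13028 Insl3 counts, and the 9 ovary libraries lie above it at 42 to 180 Insl3 counts.

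Cyp17a1 (ENSMUSG00000003555, chromosome 19, 46667165 to 46673172, minus strand), the enzyme that both theca and Leydig cells use, did not separate the tissues. It had 370, 344, 164 and 304 CPM in CV testes, against 218, 335, 284 and 219 CPM in CV ovaries. The ranges overlapped, and the log2 fold change was 0.16 (SE 0.776, 95% interval -1.52 to 1.85, edgeR adjusted p = 0.844). The fit took in all 16 libraries, so this SE and interval also reflect the GF ovaries, which spanned 12.7 to 926 CPM. They do not measure the spread of the CV libraries alone. Scaled by library totals alone the log2 fold change was -0.64, and the median of all genes moved to -0.76 from 0.05, so that Cyp17a1 stood 0.11 above the median under both scalings. Of all calls, 51.3% were higher in the testis with TMM scaling and 38.6% with library totals alone.

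The helpers of CYP17A1 were lower in the testis. Cyb5a (ENSMUSG00000024646, chromosome 18, 84838704 to 84879871, plus strand) had 27.5, 27.0, 25.2 and 26.3 CPM in CV testes, against 187, 155, 160 and 168 CPM in CV ovaries. Its log2 fold change was -2.66 (SE 0.105, edgeR adjusted p = 4.42e-14), a level 6.32-fold lower in the testis. Por (ENSMUSG00000005514, chromosome 5, 135670033 to 135735326, plus strand) had 24.4, 24.7, 22.4 and 23.4 CPM in CV testes, against 59.0, 71.2, 48.8 and 50.0 CPM in CV ovaries. Por serves every microsomal P450, and it was 2.42-fold lower in the testis (log2 fold change -1.27, SE 0.112, edgeR adjusted p = 5.21e-09). In CV testes the Cyp17a1 level per kilobase was above that of Cyb5a in every library, and the same held in CV ovaries.

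The reductases were also lower in the testis. Srd5a1 (ENSMUSG00000021594, chromosome 13, 69573449 to 69611442, minus strand), the isoenzyme of most tissues, had 7.74, 7.23, 6.20 and 7.61 CPM in CV testes, against 30.4, 26.5, 31.2 and 27.6 CPM in CV ovaries. It was 4.02-fold lower in the testis (log2 fold change -2.01, SE 0.211, edgeR adjusted p = 1.47e-07). Srd5a2 (ENSMUSG00000038541, chromosome 17, 74016955 to 74047916, minus strand), the isoenzyme of the male urogenital tract, had 3, 4, 0 and 5 counts in CV testes, against 48, 29, 26 and 21 counts in CV ovaries. Its fitted log2 fold change of -3.41 (SE 0.440, edgeR adjusted p = 8.76e-07) rests on 12 testis counts in all. Srd5a3 (ENSMUSG00000029233, chromosome 5, 76140271 to 76155504, plus strand), best known as the polyprenol reductase of dolichol synthesis, had 5.25, 4.50, 5.34 and 5.95 CPM in CV testes and 16.5, 15.9, 17.0 and 16.0 CPM in CV ovaries. It was 3.10-fold lower in the testis (log2 fold change -1.63, SE 0.108, edgeR adjusted p = 7.57e-11). Srd5a1 shares 476 of its 2909 exon bases with the predicted gene Gm17108 on the same strand, which had 64 to 95 counts in CV testes and 76 to 98 in CV ovaries.

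Of 60 other genes in 7 lists around androgen synthesis, 58 were tested between the CV tissues. In the testis 13 were higher and 43 lower, with a median log2 fold change of -1.91 over the 58 genes, against 0.05 over all genes, of which 46.3% were called higher and 44% lower. In the list that leads from cholesterol to pregnenolone 6 of 7 genes were lower. Cyp11a1, the side-chain cleavage enzyme, changed by -4.32, its electron donors Fdxr and Fdx1 by -2.14 and -2.89, and the cholesterol carrier Star by -0.76 without passing the test (adjusted p = 0.0736). Among 14 tested genes of a list of other steroid enzymes 2 were higher and 12 lower. Hsd3b6, the isoform of Leydig cells, was higher by 7.36, and Hsd3b1 and Hsd17b10 differed by -5.05 and -2.63. Cyp19a1, the aromatase that makes oestrogens from androgens, differed by -3.18. All 5 genes of a list around electron supply were lower, with Cyb5r3, Cyb5b and H6pd at -2.13, -1.17 and -2.29.

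Enzymes that depend on POR divided evenly, with 3 higher and 3 lower: the retinoic acid hydroxylase Cyp26b1 differed by 3.33, and Cyp1b1 and the oxysterol hydroxylase Cyp7b1 by -3.16 and -4.44. In the dolichol pathway, in which SRD5A3 acts, 2 genes were higher and 4 lower, with Dpagt1 at -2.66, Dolpp1 at 1.29 and Alg5 at -1.04. Of 15 genes of luteinizing hormone signalling and steroid cell transcription 3 were higher and 11 lower. These included the receptor Lhcgr at -5.22, the transcription factor Nr5a1 at -2.15, Pdgfra at -3.02, Nr2f2 at -3.27 and Gnas at -1.74. Among 5 genes of the response to androgen and INSL3, 3 were higher and 2 lower. Rxfp2, the INSL3 receptor, was higher by 4.70, and the Sertoli cell genes Rhox5 and Eppin by 6.21 and 5.69. All of these are log2 fold changes of the edgeR fit.

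Levels from here on are CPM with TMM scaling within each tissue. Between GF and CV testes none of the 7 genes tested was called by edgeR, where 8.08% of 20269 genes were called. None had an unadjusted p under 0.05 by edgeR, where 19.4% of all genes did. By DESeq2 none had one and by limma-voom 1 (Cyp17a1), and for these tools the share over all genes was not taken. Ranges of GF and CV testes overlapped for all 7, where 17.1% of all genes did not overlap. Srd5a2 was too low to be tested, with 2, 5 and 4 counts in GF testes and 3, 4, 0 and 5 counts in CV testes.

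Insl3 had 417, 439 and 434 CPM in GF testes, against 453, 467, 418 and 462 CPM in CV testes. All 3 GF libraries lay below CV testes 1, 2 and 4, and CV testis 3 lay beside the lowest of them. The log2 fold change was -0.07 (SE 0.0320, 95% interval -0.13 to 0.00, edgeR adjusted p = 0.258). Without CV testis 3 it was -0.10, and the adjusted p of the edgeR fit was 0.0363. That was the lowest with a library left out in turn, where the adjusted p of edgeR ran up to 0.558. Those fits called 996 to 2084 genes.

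Cyp17a1 had 280, 264 and 255 CPM in GF testes, against 268, 251, 120 and 221 CPM in CV testes. The GF libraries sat together in the upper part of the CV range and above it, and CV testis 3 sat apart from the rest. The log2 fold change was 0.31 (SE 0.288, 95% interval -0.42 to 1.04, edgeR adjusted p = 0.661), and 0.11 without CV testis 3. Hsd17b3 had 14.7, 16.9 and 16.7 CPM in GF testes, against 16.1, 18.0, 13.0 and 17.2 CPM in CV testes. The groups overlapped throughout, and the 95% interval of its log2 fold change ran from -0.18 to 0.19.

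Cyb5a had 21.7, 19.9 and 19.9 CPM in GF testes, against 20.0, 19.7, 18.4 and 19.1 CPM in CV testes. Por had 16.8, 18.2 and 17.6 CPM in GF testes, against 17.7, 18.0, 16.3 and 17.0 CPM in CV testes. Both helpers varied little between libraries, and their log2 fold changes were 0.09 (95% interval -0.04 to 0.21) and 0.02 (-0.11 to 0.15). Srd5a1 had 6.15, 4.48 and 4.50 CPM in GF testes, against 5.61, 5.27, 4.53 and 5.53 CPM in CV testes. Srd5a3 had 3.21, 3.83 and 3.53 CPM in GF testes, against 3.81, 3.29, 3.90 and 4.33 CPM in CV testes. Both reductases overlapped between the groups, with intervals of -0.31 to 0.19 and -0.40 to 0.15.

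**Figure D3:**
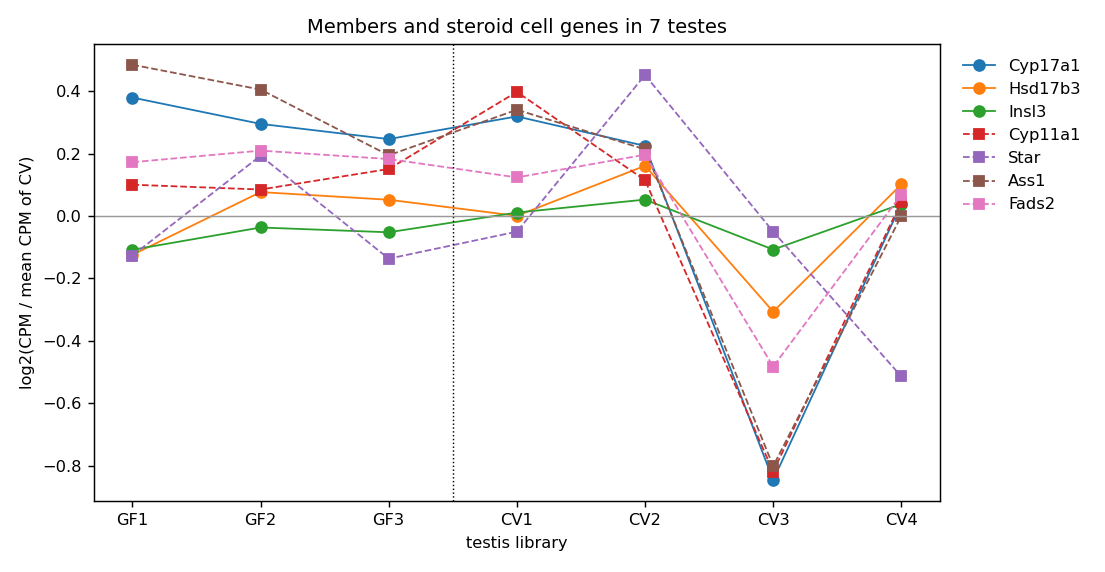
Level of 3 members (circles) and 4 other genes (squares) in each of the 7 testis libraries, as log2 of CPM over the mean CPM of the 4 CV testes; lines join the points of a gene only to guide the eye. In CV testis 3 Cyp17a1, Cyp11a1, Ass1 and Fads2 are low together while Insl3 and Star stay near the other libraries. Hsd17b3 is also lowest of the 7 libraries there.

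CV testis 3 was low in Cyp17a1 but not in every gene of the Leydig cell. Hsd17b3, Cyb5a and Por were also lowest of the 7 testes there, at 13.0, 18.4 and 16.3 CPM, and Srd5a1 and Srd5a3 were not. Cyp11a1 had 86.3, 85.4 and 89.3 CPM in GF testes, against 106, 87.2, 45.6 and 83.1 CPM in CV testes. Star had 80.7, 101 and 80.2 CPM in GF testes, against 85.2, 121, 85.2 and 61.7 CPM in CV testes, so CV testis 3 was in the middle. Insl3 in the same library was 418 CPM, the lowest of the CV testes. Lhcgr, the receptor for luteinizing hormone, had 6.92, 7.03 and 7.91 CPM in GF testes, against 7.07, 5.69, 3.60 and 3.94 CPM in CV testes. It did not pass the test over all genes (log2 fold change 0.53, edgeR adjusted p = 0.239). Hsd3b6 had 69.1, 64.8 and 61.8 CPM in GF testes, against 82.0, 76.0, 64.5 and 64.0 CPM in CV testes, and overlapped.

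Across the 7 testes, the genes most like Cyp17a1 among 12378 genes that averaged 5 CPM or more were Ass1, Fads2, Gpt2, Mgarp and Sc5d, with Pearson r of 0.989, 0.980, 0.977, 0.973 and 0.963 on log2(CPM + 0.5). Predicted and unnamed genes were passed over. Ass1, the argininosuccinate synthase, had 34.0, 32.2 and 27.8 CPM in GF testes, against 30.8, 28.2, 14.0 and 24.3 CPM in CV testes. Fads2, a fatty acid desaturase, had 74.6, 76.5 and 75.1 CPM in GF testes, against 72.1, 75.8, 47.3 and 69.4 CPM in CV testes. All of these are lowest in CV testis 3, and these points share that library. Cyp11a1 ranked 11th with r of 0.954, and Star reached an r of 0.137.

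With 7 members set against Cyp17a1 in each tissue, no Pearson correlation passed Benjamini-Hochberg adjustment. In the testis Por had the smallest p, with r of 0.687 (exact permutation p = 0.0567, adjusted p = 0.242). Cyb5a had the largest r over the 7 testes, 0.774 (exact permutation p = 0.0929, adjusted p = 0.242). Its Spearman's rho was 0.964 (exact permutation p = 0.00278, adjusted p = 0.0194). Without CV testes 3 and 4, the libraries farthest from the median of Cyp17a1, r of Cyb5a was 0.842 over 5 libraries. Hsd17b3 and Insl3 had r of 0.707 and 0.369 over the 7 testes, and -0.929 and -0.685 over those 5. No group held the 6 libraries needed for a correlation within it.

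Between GF and CV ovaries none of the 7 genes tested was called by edgeR, where 0.177% of 18095 genes were called. Srd5a1 and Insl3 had an unadjusted p under 0.05, as did 6.48% of all genes. DESeq2 called 1 of the 7, Srd5a1, and limma-voom none. Over all genes DESeq2 called 95 and limma-voom 28, against 32 by edgeR. Hsd17b3 was too low to be tested, with 4, 6, 1, 1 and 12 counts in GF ovaries and 7, 6, 5 and 4 counts in CV ovaries.

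Srd5a1 was the member whose ovary groups did not overlap, which held for 2.72% of all genes. It had 56.4, 46.2, 49.0, 64.8 and 100.0 CPM in GF ovaries, against 38.8, 33.9, 39.8 and 35.3 CPM in CV ovaries. All 5 GF libraries lay above all 4 CV libraries, and GF ovary 5 lay farthest above. The log2 fold change was 0.78 (SE 0.216, 95% interval 0.29 to 1.26), with an edgeR p of 0.00545 and an adjusted p of 0.507. DESeq2 gave an adjusted p of 0.0389, and over all alternatives the adjusted p ran from 0.0389 to 0.941. With libraries paired by number as a replicate block, which leaves out GF ovary 5, edgeR gave 0.54 with an adjusted p of 0.0507, and without that library and with no block 0.55 with an adjusted p of 0.212. The overlapping gene Gm17108 moved alongside, with 171, 107, 115, 147 and 227 counts in GF ovaries and 98, 81, 76 and 77 counts in CV ovaries. What part of either count belongs to the other was not tested.

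Insl3 had 6.26, 6.68, 5.32, 13.3 and 4.26 CPM in GF ovaries, against 3.43, 2.85, 5.05 and 5.17 CPM in CV ovaries. In GF libraries 4 of 5 lay above the CV range, GF ovary 5 lay within it, and GF ovary 4 stood highest. The log2 fold change was 0.79 (SE 0.336, 95% interval 0.05 to 1.54), with an edgeR p of 0.0391 and an adjusted p of 0.750. Without GF ovary 4 it was 0.45. The same libraries had 209, 229, 235, 257 and 199 counts of Jak3 in GF ovaries and 165, 231, 165 and 154 in CV ovaries, the gene with the shared exon.

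Cyp17a1 spanned a wide range within the GF ovaries. It had 169, 355, 409, 1182 and 16.1 CPM in GF ovaries, against 277, 428, 363 and 279 CPM in CV ovaries. GF ovary 4 lay above and GF ovaries 1 and 5 below every CV library, a 73.3-fold range within the GF group against 1.54-fold in the CV group. The log2 fold change was 0.34 (SE 0.924, 95% interval -1.81 to 2.49, edgeR adjusted p = 0.967), and it was -0.51 without GF ovary 4, 0.65 without GF ovary 5 and -0.63 by limma-voom.

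The other members overlapped between GF and CV ovaries. Cyb5a had 279, 195, 219, 271 and 210 CPM in GF ovaries, against 238, 198, 204 and 215 CPM in CV ovaries (95% interval of the log2 fold change -0.11 to 0.38). Por had 65.8, 72.9, 83.8, 81.4 and 91.1 CPM in GF ovaries, against 75.1, 91.1, 62.3 and 64.0 CPM in CV ovaries (interval -0.17 to 0.39). The helpers of CYP17A1 thus did not share its spread, and their widest range within an ovary group was 1.46-fold. Srd5a2 had 3.01, 1.95, 3.74, 3.10 and 3.74 CPM in GF ovaries, against 3.17, 1.96, 1.99 and 1.51 CPM in CV ovaries (interval -0.05 to 1.10). Srd5a3 had 19.1, 22.4, 23.5, 18.0 and 19.0 CPM in GF ovaries, against 21.0, 20.3, 21.6 and 20.4 CPM in CV ovaries (interval -0.24 to 0.17). Srd5a3 was the steadiest of the reductases in CV ovaries, with an SD of 0.612 CPM around 20.8 CPM.

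**Figure D4:**
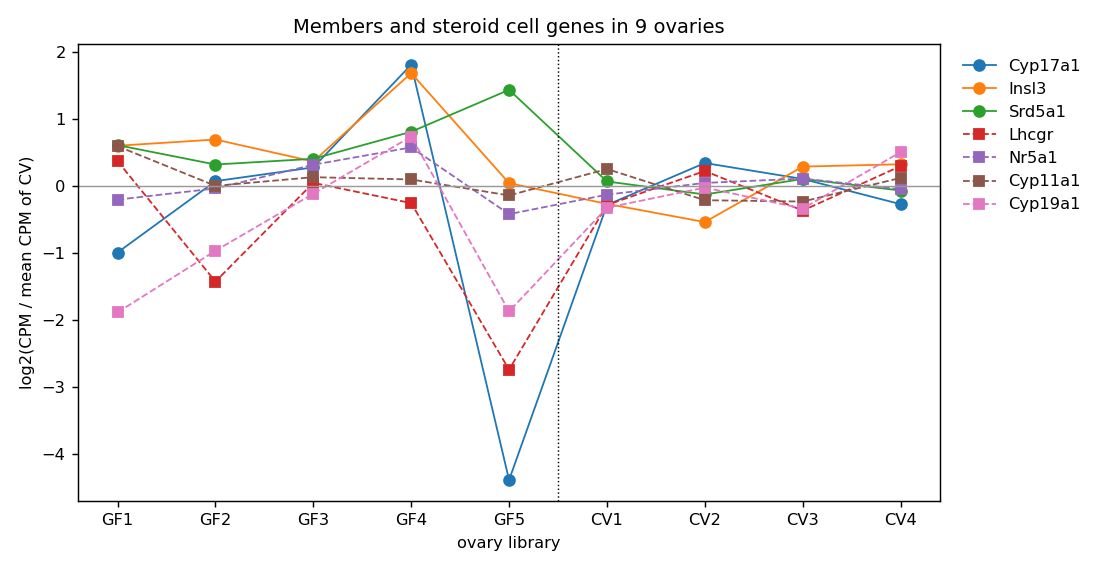
Level of 3 members (circles) and 4 other genes (squares) in each of the 9 ovary libraries, as log2 of CPM over the mean CPM of the 4 CV ovaries; lines join the points of a gene only to guide the eye. Cyp17a1 is high with Insl3 in GF ovary 4, and in GF ovary 5 Cyp17a1 and Lhcgr are low while Srd5a1 is high.

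GF ovaries 4 and 5, which set the ends of the Cyp17a1 range, also stood apart in other genes. In GF ovary 5 Lhcgr was at 49.6 CPM, where GF ovaries 1 to 4 had 429, 123, 342 and 278 CPM and CV ovaries had 272, 387, 257 and 407 CPM. The same library had 23.9 CPM of Cyp11b1 and 10.2 CPM of Akr1b7, both adrenal cortex genes, against at most 0.751 and 0.826 CPM in the other ovaries. Its adrenal sum of 35.4 CPM stood beside the highest Srd5a1 level of the series, and the part of adrenal tissue in that level was not tested. The other 3 of the 5 adrenal genes were low in GF ovary 5, with Mc2r at 1.03 CPM against 0.0738 to 0.976 CPM in GF ovaries 1 to 4. Cyp21a1 and Cyp11b2 were at 0.258 and 0.0645 CPM in GF ovary 5, or 4 and 1 counts, and Cyp21a1 reached 1.42 CPM in CV ovary 2. Cyp11a1 and Hsd3b1 in GF ovary 5 were 2556 and 3575 CPM, inside the range of the CV ovaries. In GF ovary 4 the luteal genes Ptgfr and Akr1c18 were at 11.7 and 0.148 CPM, against 26.9 to 316 and 2.39 to 488 CPM in the other GF ovaries, and 98.4 to 347 and 8.60 to 48.7 CPM in CV ovaries. Sfrp4, also a luteal gene, was at 32.9 CPM in GF ovary 4, against 43.3 to 796 CPM in the other GF ovaries and 322 to 733 CPM in CV ovaries. Of the other luteal genes in that library, Prlr, Parm1 and Hsd17b7 were at 583, 23.2 and 48.9 CPM, inside the range of the other ovaries, and the lowest sum over the 6 luteal genes was that of GF ovary 5, at 608 CPM. GF ovary 4 had the highest granulosa cell sum of the ovaries, 2667 CPM over 8 genes, and the part of these cells in the Cyp17a1 values was not tested.

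Across the 9 ovaries, the genes most like Cyp17a1 among 13413 were Chsy1, Agfg1, Ccdc37, Polr3e and Kif5b, with Pearson r of 0.959, 0.958, 0.940, 0.938 and 0.934. Their own range was narrow: Agfg1 had 80.1 to 89.7 CPM in GF and 84.7 to 87.4 CPM in CV ovaries. Nr5a1 ranked 81st with r of 0.849, Lhcgr 509th with r of 0.703, and Cyp11a1 reached an r of 0.075. The genes most like Insl3 were Stip1, Psd4, Sfswap, Zcchc4 and Dhx30, with r of 0.949, 0.941, 0.937, 0.931 and 0.927. The points of each r share libraries: GF ovary 4 was the highest for both Cyp17a1 and Insl3, and the lowest was GF ovary 5 for Cyp17a1 and CV ovary 2 for Insl3.

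Among the members, Hsd17b3 had the strongest relation to Cyp17a1 across ovaries, with r of -0.740 (exact permutation p = 0.0227, adjusted p = 0.159) and rho of -0.533. Hsd17b3 had only 1 to 12 counts a library there, too low to be tested between the groups, so counting error enters this r. Without GF ovaries 4 and 5 r was 0.010, so the relation rests on those libraries. Insl3 and Cyp17a1 had r of 0.411 (exact permutation p = 0.231, adjusted p = 0.540) and rho of 0.217, and -0.365 without those libraries.

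**Figure D5:**
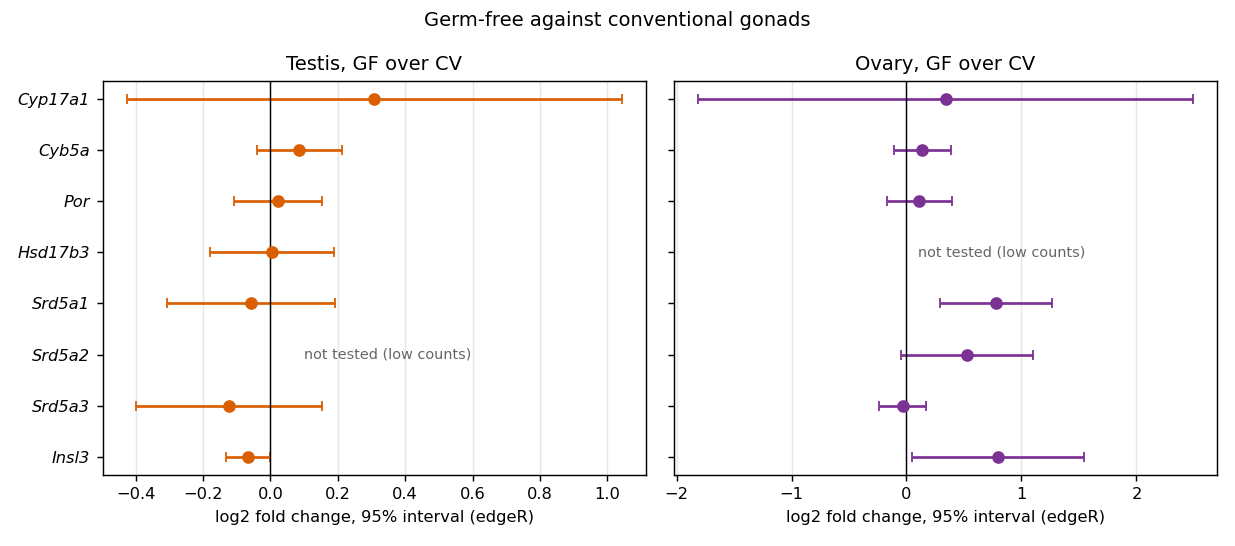
Log2 fold change of GF over CV for each member in the testis (left) and the ovary (right), with 95% intervals from the edgeR fit; the axes of the panels differ. Intervals in the testis are narrow except for Cyp17a1, and in the ovary those of Srd5a1 and Insl3 lie above 0 before adjustment.

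The effect of the microbiota was compared between the tissues by an interaction, the log2 fold change of GF over CV in testes minus that in ovaries. None of the 8 genes tested was called by edgeR, DESeq2 or limma-voom, where edgeR called 0.132% of 21977 genes. That was 29 genes, against 118 by DESeq2 and 43 by limma-voom. By edgeR 2 had an unadjusted p under 0.05, as did 6.93% of all genes. For Srd5a1 the testis effect was lower than the ovary effect by 0.85 on the log2 scale (interaction -0.85, SE 0.302, 95% interval -1.50 to -0.21, edgeR unadjusted p of 0.0127 and adjusted p of 0.553). For Insl3 the interaction was -0.88 (SE 0.365, 95% interval -1.66 to -0.09, edgeR unadjusted p of 0.0308 and adjusted p of 0.650). For Cyp17a1 it was -0.05, with a 95% interval of -2.47 to 2.37 that spans large differences in both directions.

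Around the members, 1 of the 60 pathway genes was called between GF and CV libraries. In the ovary 55 were tested and none was called by edgeR, with 2 at an unadjusted p under 0.05, which 6.48% of all genes had, and a median log2 fold change of 0.06 against 0.01 over all genes. In the testis 57 were tested and 1 was called lower in GF, as were 4.41% of all genes, with 9 at an unadjusted p under 0.05, which 19.4% of all genes had, and a median of 0.01 against 0.00 over all genes. The 1 called was Hsd17b11, which oxidises androstanediol and sits on lipid droplets. It had 2.20, 2.70 and 3.56 CPM in GF testes, against 3.04, 4.24, 4.27 and 4.29 CPM in CV testes. The groups overlapped through CV testis 1, and the log2 fold change was -0.49 (SE 0.158, edgeR adjusted p = 0.0484). The call was lost with DESeq2 (adjusted p = 0.0984), with limma-voom (adjusted p = 0.0822), with all 16 libraries in 1 edgeR fit (adjusted p = 0.920), with the replicate block (edgeR adjusted p = 0.0687) and without any 1 of CV testes 2, 3 and 4 and GF testes 1 and 2, where the adjusted p of edgeR ran up to 0.278.

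The upstream and downstream genes overlapped between GF and CV libraries. In the ovary Star had 481, 345, 158, 237 and 209 CPM in GF libraries, against 458, 176, 173 and 239 CPM in CV libraries. Cyp19a1 had 23.7, 44.9, 81.0, 146 and 24.0 CPM in GF ovaries, against 70.0, 86.3, 69.5 and 125 CPM in CV ovaries. Nr5a1 had 188, 211, 269, 322 and 161 CPM in GF ovaries, against 197, 223, 233 and 209 CPM in CV ovaries. In each of these 3 genes the GF ovaries extended past the CV range on both sides. Rxfp2, the INSL3 receptor, had 12.7, 16.0 and 15.2 CPM in GF testes, against 17.1, 15.9, 16.0 and 16.5 CPM in CV testes. It did not pass the test over all genes (log2 fold change -0.16, edgeR adjusted p = 0.205).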

How the data were processed

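Total RNA from whole gonads was made into libraries with a stranded kit after ribosomal RNA depletion, per the labels' protocols. The authors deposited raw whole-number counts of reads for 38087 genes and 16 libraries; the submitters' processing notes name STAR 2.4.0i and mm10. No counting tool, annotation or strand setting is given in the sources used here. The members and gene lists were chosen with earlier results of these data known. Positions come from GENCODE M21 on GRCm38, the assembly of mm10, joined by gene identifier, and promoter sequences from RefSeq on GRCm38.p6.

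Counts were tested with edgeR 4.0.16 in R 4.3.3: quasi-likelihood F test, TMM scaling, edgeR's filter with a minimum count of 10, robust dispersions and Benjamini-Hochberg adjustment over all genes tested. GF over CV was fitted within each tissue. The interaction and CV testis over CV ovary were fitted over all 16 libraries. A gene is called at an adjusted p under 0.05. Replicate pairs differed beyond sampling noise (chi-square per degree of freedom 2.37 to 34.3), so each library counted once. Correlations used log2(CPM + 0.5) and two-sided exact permutation tests, adjusted over 7 relations per tissue. A count of 3 equals 0.189 to 0.232 CPM in the ovary and 0.106 to 0.116 CPM in the testis, for counting error only.

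Deviations of same-numbered GF and CV ovaries had r of 0.391, 0.244, 0.211 and 0.382 for numbers 1 to 4. The best match among GF ovaries 1 to 4 was number 1, 3, 4 and 4 for CV ovaries 1 to 4. CV ovaries 2 and 3 thus matched another number better than their own, and the labels state no pairing. The numbers were taken as pairs only in the replicate block, and the main fits had no block. Alternatives were other scalings, no filter, DESeq2 1.42.0, limma-voom (limma 3.58.1), other samples in the fit, a replicate block and each library left out; fits over the partnered libraries without a block, and all alternatives for Hsd17b11, were added after seeing the data. The edgeR steps were tested on simulated data. Named besides the members were called genes of 7 lists, the 3 of smallest p per list between tissues, 9 genes always, of which 1 is not reported here, and the 5 genes most like Cyp17a1 or Insl3. Marker genes given for libraries that stand apart, Jak3 and Gm17108 aside as overlapping genes, were chosen after their values were seen.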

Additional observations from a re-analysis of the deposited data

Results flagged for a closer look

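In each group of 4 to 10 libraries, the library at either end was compared with the rest by Dixon's test for the 8 members and 9 other genes, in 51 groups. Chance flags about 1 in 20 groups, and 3 of the 51 stood out. In GF ovaries Insl3 was 13.3 CPM in GF ovary 4, where the other GF ovaries had 4.26 to 6.68 CPM. Rxfp2, the INSL3 receptor, was 3.90 CPM in GF ovary 2, where the others had 0.376 to 0.903 CPM. In CV testes Hsd17b11 was 3.04 CPM in CV testis 1, where the others had 4.24 to 4.29 CPM.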

How the results depend on the processing

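The 7 calls between CV testes and CV ovaries held under every alternative run, with Insl3 between 6.78 and 7.74 and Hsd17b3 between 5.36 and 6.34 on the log2 scale. No member was called for the interaction under any of them. For GF over CV, 1 member was called in the ovary by DESeq2 and 1 in the testis without CV testis 3, against 0 otherwise (0 to 1 over libraries left out in the testis, 0 to 0 in the ovary). Genes called in the ovary came to 95 with DESeq2, 93 with all 16 libraries in 1 fit and 91 with the replicate block, of which 34 were higher, against 32, and to 25 to 33 with a library left out. In the testis they came to 122 with all 16 libraries in 1 fit and to 1692 with the replicate block, against 1638, and to 996 to 2084 with a library left out, the fewest without GF testis 2. For the interaction they came to 118 with DESeq2, 16 over partnered libraries without a block and 28 with the replicate block, against 29, and to 13 to 37 with a library left out. With the replicate block 0 members were called for GF over CV and the interaction and 7 between tissues, so no call of a member changed. Same-numbered testes did not deviate together (r of -0.030, 0.047 and -0.023), nor did same-numbered CV ovaries and testes (-0.032 to 0.026). Members correlated with Cyp17a1 over testes came to 0 to 1 with a library left out, Cyb5a without GF testis 1.

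Values that changed sign were these, and the cause was not tested. Cyp17a1 was -0.63 in the ovary by limma-voom, -0.51 without GF ovary 4 (range -0.51 to 0.65 with a library left out), 1.03 by limma-voom and 0.0969 with the replicate block for the interaction (range -0.36 to 0.79), and -0.64 between tissues with library totals alone. The interaction of Srd5a2 was 0.0877 by limma-voom, 0.15 with the replicate block and 0.14 over the same libraries without it (range -0.66 to 0.0645), that of Hsd17b3 ran from -0.0407 to 0.83 and that of Cyb5a from -0.13 to 0.0013. Srd5a3 in the ovary ran from -0.0871 to 0.0090. In the testis Hsd17b3 was -0.0139 with all 16 libraries in 1 fit (range -0.0868 to 0.0603), Por ran from -0.0078 to 0.0479 and Srd5a1 from -0.226 to 0.0198. Without the libraries farthest from the median of Cyp17a1, r turned to -0.886 for Cyb5a, 0.578 for Por, 0.010 for Hsd17b3 and -0.365 for Insl3 in the ovary, and to -0.717 for Por, -0.929 for Hsd17b3, -0.755 for Srd5a2 and -0.685 for Insl3 in the testis. With a library left out, r in the ovary ran from -0.105 to 0.364 for Cyb5a, -0.357 to 0.534 for Por, -0.905 to 0.367 for Srd5a1, -0.501 to 0.158 for Srd5a2 and -0.285 to 0.660 for Srd5a3, and in the testis from -0.666 to 0.890 for Hsd17b3, -0.692 to 0.889 for Srd5a2 and -0.672 to 0.649 for Insl3. Depth limits Hsd17b3 in the ovary and Srd5a2 in the testis, where differences were not detectable.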
